A study of Mus musculus with 16 samples.

Results

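The collagen, laminin and basement membrane genes measured on the arrays were 52 genes with 75 probes, of 15967 genes with 24606 probes in all. Members were chosen by name: every probe whose platform symbol is that of a collagen chain (Col and a digit) or a laminin chain (Lama, Lamb or Lamc and a digit), and the probes of Nid1, Hspg2, Sparc, Fn1 and Serpinh1. The brightest probe stands for a gene. Some other genes of these families, Nid2 among them, were not analysed here. RNA came from HPRT- E14TG2a cells, a mouse embryonic stem (ES) cell line without HPRT function grown with serum and LIF, and was hybridized to Illumina MouseRef-8 BeadChips. All cultures were held for 6 h in KSR medium, without serum or LIF, with 10 µM SB-431542. This drug blocks the type I receptors for Nodal and Activin. For the next 18 h the cultures received, in KSR medium, 25 ng/ml Activin (the Activin group), 10 µM SB-431542 (SB), a 1 in 5000 dilution of the DMSO carrier (DMSO) or the medium alone (KSR). Each group had 4 arrays, 1 from each of passages 20, 21, 23 and 24 of the line, so that each passage also had 4 arrays, 1 of each treatment.

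Basement membranes are thin sheets of matrix under epithelia. Laminins, trimers of an alpha, a beta and a gamma chain, form the layer at the cell surface, collagen IV forms a second network, and nidogen and perlecan (the product of Hspg2) tie these together. In the early mouse embryo the primitive endoderm and the parietal endoderm derived from it make much of this matrix, and undifferentiated ES cells make some of it themselves.

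Background was read from 1191 probes of sensory receptor genes (olfactory, vomeronasal, taste), and a probe brighter than 95% of them on an array is called above background there. By this measure 9816 to 10482 probes were above background on an array. The arrays differed in brightness, with a mean intensity of 667 to 760 array units at passages 23 and 24 and 486 to 669 at passages 20 and 21, and the dimmest was the KSR array of passage 21. Intensities below are given as deposited, before any scaling between arrays, while log2 values and differences are after it. The label of ES cells was met by the 7 pluripotent cell markers measured, Pou5f1, Nanog and Sox2 among them, which were above background on 4 or more arrays each.

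Among the 52 members, 18 were above background on 4 or more arrays, 7 on 1 to 3 arrays and 27 on none. Collagen IV was represented by Col4a1 and Col4a2, which encode the chains of its most widespread trimer, with mean log2 levels of 9.05 and 9.60. The other 4 collagen IV chains were never above background. Of the 10 laminin chains, 5 were detected by this count: the gamma chain Lamc1 (mean log2 level 10.62), the alpha chains Lama5 (8.47) and Lama4 (8.41), and the beta chains Lamb2 (8.30) and Lamb1 (7.22, above background on 11 arrays). Lama1, the alpha chain of the laminin best known from the embryonic basement membrane, was above background on no array, with intensities of -27.2 to 10.6. Of the linking and matrix glycoproteins, Hspg2 averaged 11.12, fibronectin (Fn1) 10.00, nidogen 1 (Nid1) 8.54 and the collagen-binding protein Sparc 7.09, the last above background on 7 arrays. Serpinh1, the chaperone that folds procollagen in the endoplasmic reticulum, averaged 11.10. Col18a1, a basement membrane collagen that carries heparan sulfate, averaged 12.76. The remaining detected members were the fibril-nucleating chain Col5a1 (8.01) and 4 genes best known from cartilage, Col9a3 (10.60), Col9a2 (7.79), Col10a1 (7.24) and Col2a1 (7.11, above background on 5 arrays). Col1a1, Col1a2 and Col3a1, the main collagen genes of fibroblasts, were never above background. These means are of separate probes and give no order of abundance between genes. Nor does a probe at background, as for Lama1, show that a transcript is absent, as a second Col18a1 probe was never above background.

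**Figure D1:**
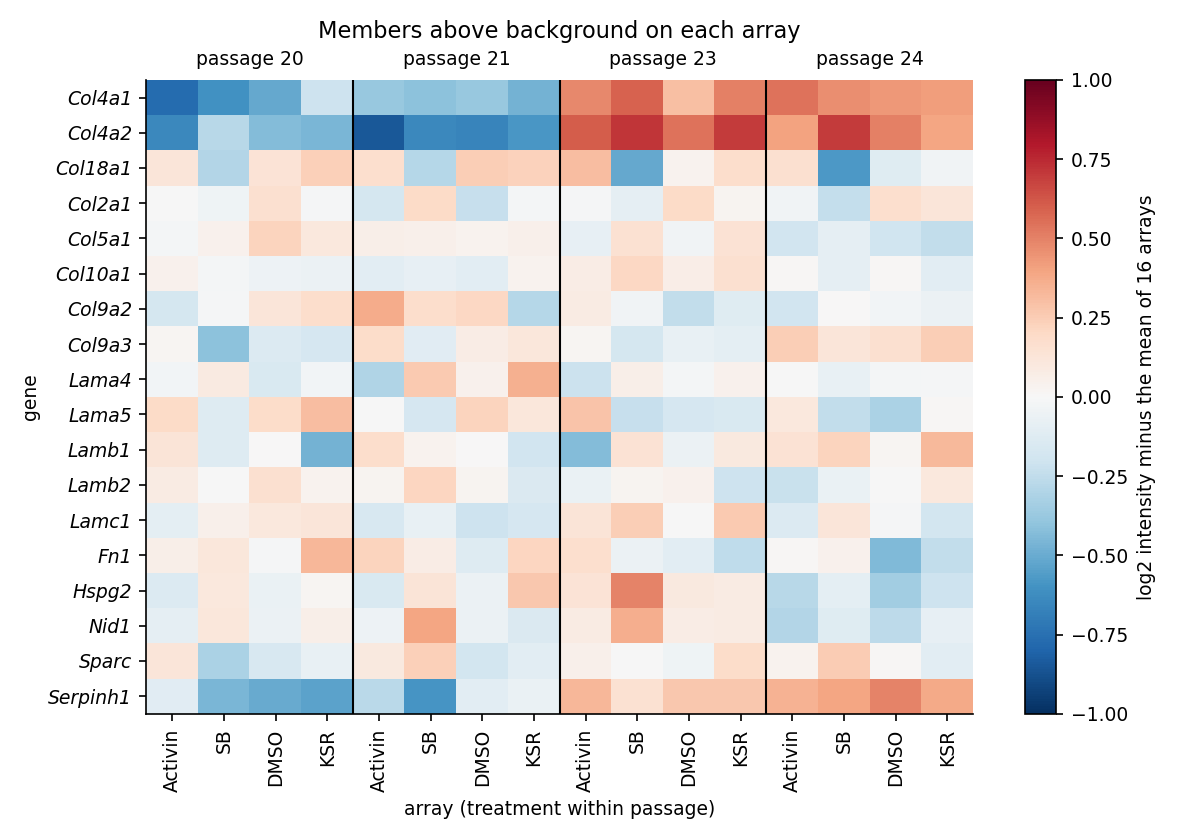
Log2 intensity of the 18 detected members (rows) on each of the 16 arrays (columns, grouped by passage), shown as the difference from the gene's mean over all arrays; red is above and blue below that mean. Col4a1, Col4a2 and Serpinh1 are above their means on the arrays of passages 23 and 24 and below them on those of passages 20 and 21, while Col18a1 is lowest on the SB arrays.

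The clearest difference among the members lay between passages and not between treatments. Col4a1 had intensities of 575, 708 and 782 (lowest, median and highest of 8 arrays) at passages 23 and 24, against 203, 281 and 380 at passages 20 and 21. Col4a2 had 1054, 1142 and 1271 at passages 23 and 24, against 323, 380 and 519 at passages 20 and 21. Every array of the later passages was brighter than every array of the earlier ones for both genes. With treatment in the model, Col4a2 was higher at passages 23 and 24 by 1.14 on the log2 scale (SE 0.05, adjusted p = 1.05e-11), a 2.20-fold difference. Col4a1 was higher by 0.93 (SE 0.07, adjusted p = 2.01e-08), or 1.91-fold. Within each of the 4 treatments the difference ran from 1.07 to 1.25 for Col4a2 and from 0.80 to 1.08 for Col4a1.

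The collagen chaperone moved with them. Serpinh1 had 2420, 2963 and 3258 at passages 23 and 24, against 1204, 1453 and 1820 at passages 20 and 21, again with no overlap. The fitted difference was 0.66 (SE 0.07, adjusted p = 5.34e-06, 1.58-fold), and within the treatments it ran from 0.53 to 0.79. In all, 4 of 52 members (7.69%) passed the threshold between the later and the earlier passages, against 4.34% of all genes, and all 4 were higher. The remaining member, Col26a1, was above background on no array, so no fold is given for it (log2 difference 0.24, adjusted p = 0.0439). With each array scaled by its median in place of quantile normalization, 6 members were higher and 1 was lower (13.5%), against 17.9% of all genes, so that the members' share was then below that of all genes. Col4a1, Col4a2 and Serpinh1 passed in each of the 13 alternative analyses.

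For the other parts of the basement membrane no difference passed in the fit of all probes and all arrays after quantile normalization. The remaining 15 members above background differed by -0.22 to 0.11 on the log2 scale between the later and the earlier passages, none past the threshold (lowest adjusted p = 0.0811, for Fn1) and none with groups that did not overlap. Lamc1 had 1500, 1660 and 1909 at passages 23 and 24, against 970, 1322 and 1637 at passages 20 and 21, and a fitted difference of 0.11 (SE 0.06, adjusted p = 0.332). With median scaling Lamc1 was higher by 0.28 (SE 0.07, adjusted p = 0.00966) and passed, as did Col9a3 (0.29, adjusted p = 0.00299) and, lower and never above background, Lamc3 (-0.23, adjusted p = 0.0297). Nid1 had 239, 307 and 411 at passages 23 and 24, against 189, 281 and 358 at passages 20 and 21, a difference of -0.04 (SE 0.06) after scaling. Hspg2 had 1773, 2235 and 3144 at passages 23 and 24, against 1756, 2017 and 2188 at passages 20 and 21, a difference of -0.03 (SE 0.06). Both linkers overlapped widely between the passages. Lamb1 had 29.6, 83.3 and 116 at passages 23 and 24, against 25.2, 63.4 and 89.1 at passages 20 and 21 (difference 0.11, SE 0.09). Sparc had 48.9, 60.6 and 86.7 at passages 23 and 24, against 27, 44.2 and 70.1 at passages 20 and 21 (difference 0.09, SE 0.07). Lamb1 was above background on 11 arrays and Sparc on 7, and both overlapped between the passages. Lama5 differed by -0.18 (SE 0.07) and Fn1 by -0.22 (SE 0.07). Fn1 passed when probes above background alone were tested (adjusted p = 0.0432). Its other probes above background gave -0.21 (adjusted p = 0.0918) and 0.04 (adjusted p = 0.82) when all probes were tested, so the Fn1 probes did not all fall. Over all 52 members the median difference was 0.001, and over all genes it was -0.001.

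**Figure D2:**
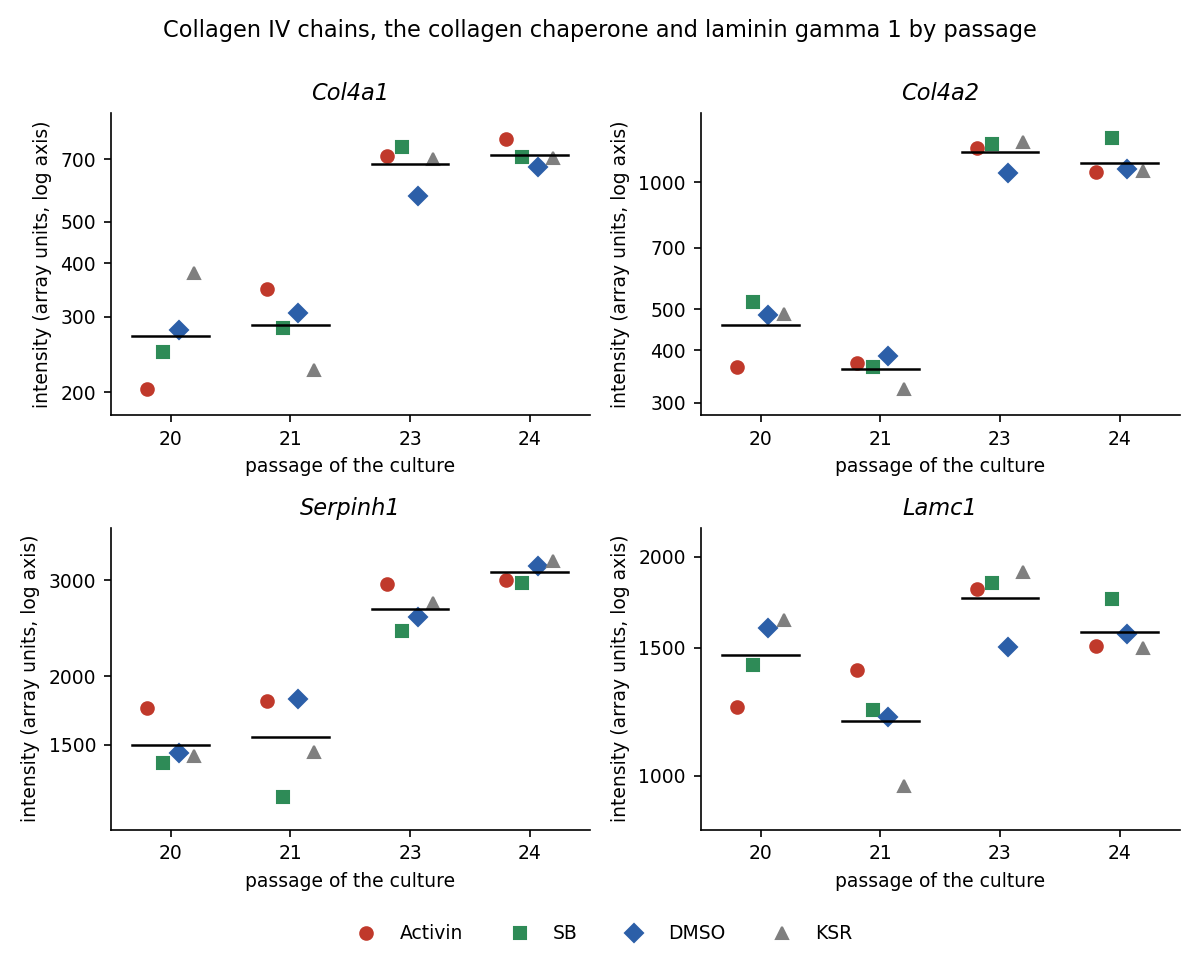
Deposited intensity (array units, log axis) of Col4a1, Col4a2, Serpinh1 and Lamc1 on each array against the passage of the culture; symbols mark the treatment and horizontal lines are the geometric means of the 4 arrays of a passage. The first 3 genes separate passages 23 and 24 from passages 20 and 21 in every treatment, while the Lamc1 arrays overlap between 1500 and 1637.

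The arrays of a passage share a starting culture, and there were 2 passages on each side, so the p-values measure the spread between arrays and not between independent passages. With the passage as the unit, the smallest two-sided p an exact permutation test could give is 0.333. Fewer cells of a type and less RNA per cell cannot be told apart in bulk RNA.

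Markers of another cell type moved with the same passages. Among 10 measured markers of primitive and parietal endoderm, 6 were higher and 1 was lower at passages 23 and 24 (70%). In that comparison 4.34% of all genes passed, and 7.35% of the genes above background on 4 or more arrays. Dab2, an endocytic adaptor of extraembryonic endoderm, had 1137, 1369 and 1880 at passages 23 and 24, against 135, 197 and 245 at passages 20 and 21, a log2 difference of 2.28 (SE 0.05, adjusted p = 5.63e-17). Amn, the amnionless receptor subunit of visceral endoderm, was higher by 1.32 (adjusted p = 1.05e-11). The endoderm transcription factor Gata6 was higher by 1.22 (adjusted p = 2.96e-10) and the receptor gene Pdgfra by 0.56 (adjusted p = 5.55e-06). Pdgfra was above background on all 8 later and none of the 8 earlier arrays. Sox7 (0.50) and Sox17 (0.46) passed while never above background, and Gata4, another endoderm factor, was lower by 0.30 (adjusted p = 0.0201). Foxa2, Thbd and Pth1r were at background throughout. The summed intensity of the list was 2260 to 3221 at passages 23 and 24, against 519 to 807 at passages 20 and 21. None of the 7 pluripotent cell markers passed in this comparison. Of 8 fibroblast markers 6 were never above background, Thy1 did not pass, and Acta2, smooth muscle actin, was lower by 0.76 (adjusted p = 9.78e-08). The summed fibroblast intensity was 439 to 821 at passages 23 and 24, against 553 to 1181 at passages 20 and 21. None of 8 trophectoderm markers passed. The part of endoderm-like cells in the collagen IV difference was not tested.

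**Figure D3:**
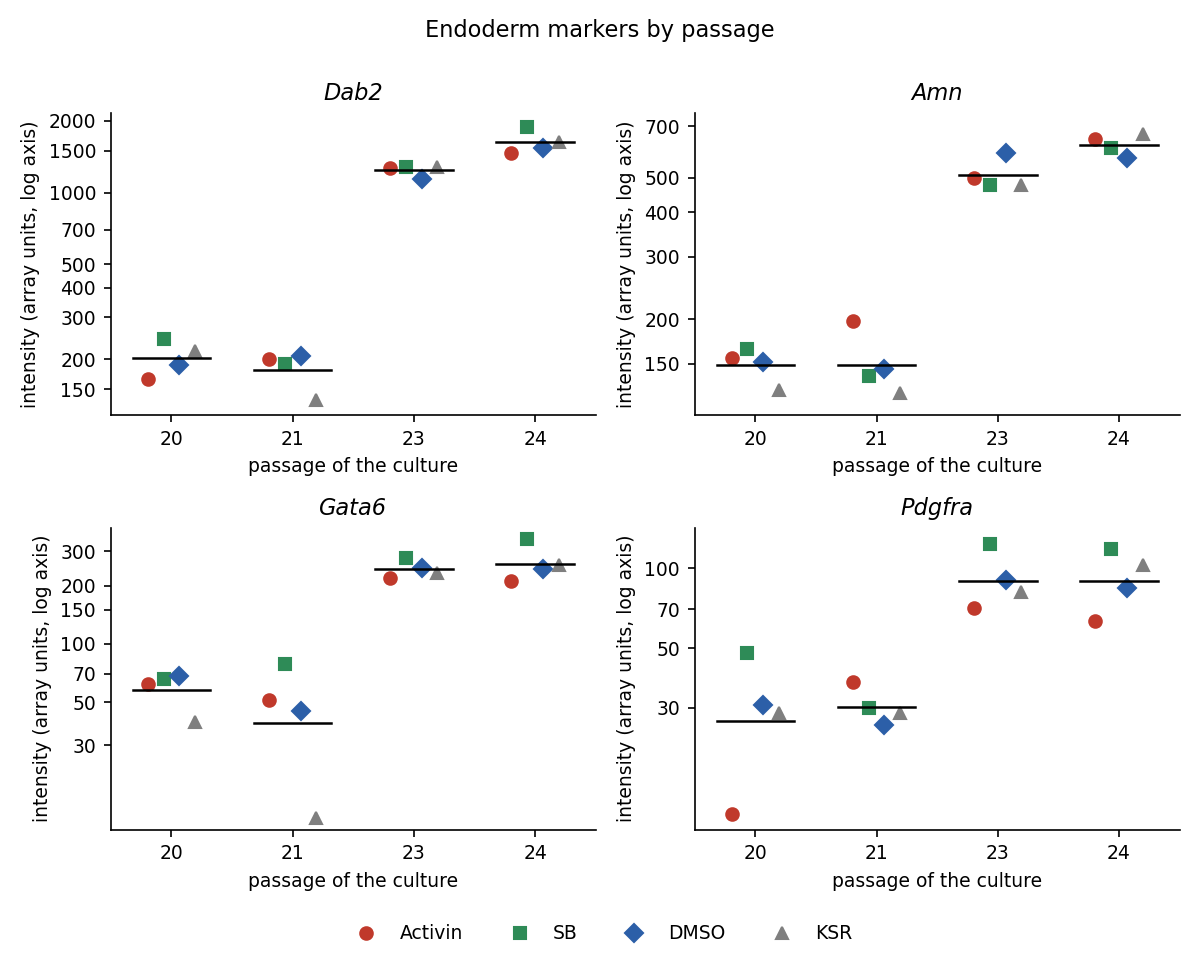
Deposited intensity (array units, log axis) of 4 endoderm markers, Dab2, Amn, Gata6 and Pdgfra, on each array against passage, with symbols and lines as for the collagen IV genes. All arrays of passages 23 and 24 lie above all arrays of passages 20 and 21 for each gene.

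Within the arrays of 1 side the collagen IV genes showed no shared variation that these arrays could resolve. Because the Col4a1 levels of the later and the earlier passages lay apart, correlations were made within each side. Col4a1 was correlated with 10 members within the 8 arrays of passages 23 and 24 and within the 8 arrays of passages 20 and 21. Over these 20 pairs Pearson's r lay between -0.52 and 0.40 and Spearman's rho between -0.48 and 0.67, none past the threshold in an exact permutation test (lowest adjusted p = 0.851 for r and 0.892 for rho). Treatment and passage means were not removed, and the 8 arrays were permuted freely. The correlations therefore also hold differences between the treatments and between the passages of a side. For Col4a2 at passages 23 and 24, r was 0.32 and rho 0.48 (exact permutation p = 0.455 and 0.243, n = 8), and r was 0.12 without the 2 arrays farthest from the median of Col4a1. At passages 20 and 21, r was -0.15 and rho -0.45 (exact permutation p = 0.739 and 0.267, n = 8), and r was -0.95 without 2 such arrays.

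Col4a1 and Col4a2 lie head to head on opposite strands of mouse chromosome 8, and their promoter windows are shown because one shared stretch holds the starts of 2 genes that both differed by passage. Windows of 250 bases before and 50 after the start site were taken from RefSeq (GRCm38.p6), which gave one for 39 of the 52 members. The start sites are 21 bases apart, Col4a1 at 11312826 and Col4a2 at 11312805, so the annotated transcripts overlap at their 5′ ends. The windows share 78 bases (chr8:11312777-11312854), set in capitals below, and each is read 5′ to 3′ on its gene's strand.
Col4a1, chr8:11312777-11313076, minus strand: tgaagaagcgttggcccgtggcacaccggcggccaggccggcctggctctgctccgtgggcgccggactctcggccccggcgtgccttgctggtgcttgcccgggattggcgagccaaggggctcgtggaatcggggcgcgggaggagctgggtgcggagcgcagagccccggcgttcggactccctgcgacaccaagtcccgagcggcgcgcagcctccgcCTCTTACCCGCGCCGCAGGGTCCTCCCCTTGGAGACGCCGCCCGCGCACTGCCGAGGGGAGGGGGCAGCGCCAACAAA
Col4a2, chr8:11312555-11312854, plus strand: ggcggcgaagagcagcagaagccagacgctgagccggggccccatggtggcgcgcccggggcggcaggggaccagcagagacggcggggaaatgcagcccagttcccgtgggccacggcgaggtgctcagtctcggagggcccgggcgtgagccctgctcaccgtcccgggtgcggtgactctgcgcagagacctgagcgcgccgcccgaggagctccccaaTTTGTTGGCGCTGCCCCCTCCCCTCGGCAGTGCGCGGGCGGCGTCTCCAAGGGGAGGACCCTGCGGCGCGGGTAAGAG

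The windows were rich in G and C, 74% for Col4a1 and 73.7% for Col4a2, against a median of 52.7% over 32851 windows of the annotation (chromosome 18 left out). Searched on both strands, the GC box GGGCGG occurred once in the Col4a1 window, 10 bases after its start, within the shared stretch, and 3 times in the Col4a2 window, of which the match 8 bases after the start is the same stretch of DNA. It is held by 35.7% of all windows. The CCAAT box occurred once in each (37.4% of all windows). The GATA core GATAA (25.4%) and the TATA box TATAAA (13.6%) occurred in neither, and the short Smad element CAGAC (49.6%) occurred once in the Col4a2 window and not in the Col4a1 window. These matches describe letters and not sites of binding.

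Passage 24 was also set against the mean of the other passages, a comparison chosen because it stood apart on the arrays. Its 4 arrays share 1 starting culture, so that passage and culture cannot be told apart and the p-values measure only the spread between arrays. Of the 52 members 10 (19.2%) passed, 5 higher and 5 lower, against 5.62% of all genes. With median scaling 5 members were higher and 2 lower (13.5%), close to the 13.3% of all genes. With the authors' normalized values 6 of 52 members passed, 4 higher and 2 lower, against 4.32% of all genes. Col4a2 (log2 difference 0.67, SE 0.06, adjusted p = 1.2e-06), Col4a1 (0.62, SE 0.08, adjusted p = 5.76e-05) and Serpinh1 (0.54, SE 0.08, adjusted p = 0.00041) were again higher, and passed in each of 12 alternatives. For the collagen IV genes this rested on the earlier passages, as their means at passages 24 and 23 were 9.52 and 9.52 for Col4a1 and 10.10 and 10.24 for Col4a2.

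At passage 24 the endoderm markers again had 6 of 10 higher (60%), against 5.62% of all genes that passed, and Acta2 was lower by 1.04. The part of cells with such markers in these differences was not tested. Col9a3, a chain of cartilage collagen IX, had 1968, 1725, 1766 and 2023 in the Activin, SB, DMSO and KSR cultures of passage 24, against 1003, 1338 and 1751 (lowest, median and highest) on the other 12 arrays. It was higher by 0.26 (SE 0.06, adjusted p = 0.0123), with overlap by the Activin array of passage 21 alone. This call was lost without the SB, the DMSO or the KSR arrays and without passage 20 (highest adjusted p = 0.107). Hspg2, the perlecan gene, had 1958, 2142, 1773 and 2114 at passage 24, against 1756, 2079 and 3144 on the others, and fell by 0.31 (SE 0.07, adjusted p = 0.00848). Its mean log2 level was lowest of the 4 passages at passage 24, at 10.88 ± 0.11, and highest at passage 23, at 11.32 ± 0.20 (SD, n = 4 each). Nid1 had 253, 287, 239 and 303 at passage 24, against 189, 302 and 411 on the others, and fell by 0.25 (SE 0.07, adjusted p = 0.0312). Col5a1 had 162, 177, 151 and 152 at passage 24, against 139, 174 and 217, and fell by 0.24 (SE 0.06, adjusted p = 0.0261). The intensities of these genes overlapped between the passages before scaling. The second Hspg2 probe fell by 0.16 and did not pass (adjusted p = 0.222). The differences of Hspg2, Nid1 and Col5a1 did not pass without the SB arrays, without the DMSO arrays, without passage 23 or with median scaling. Those of Nid1 and Col5a1 were also lost without the Activin arrays, without passage 20 and with a normexp offset of 16. Nid1 was lost with the authors' values and Col5a1 without the KSR arrays. In all, Hspg2 passed in 8 of 12 alternatives, Nid1 in 4 and Col5a1 in 4.

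The remaining passage 24 members that passed were never above background, so no fold is given. Col26a1 differed by 0.35 on the log2 scale, with intensities of 21.4 to 62.6 at passage 24 and -6.2 to 32.8 on the others. Col1a1 differed by -0.27, with -9.3 to 4.7 at passage 24 and -1.6 to 24.9 on the others. Col8a1 differed by -0.30, with -10.4 to 29.4 at passage 24 and 9.5 to 36.0 on the others.

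Among the treatments, Col18a1 was the one member above background on 4 or more arrays that passed in a comparison. It had intensities of 5064, 4733, 4891 and 4836 in SB cultures of passages 20, 21, 23 and 24, against 7499, 7584, 7200 and 6855 in DMSO cultures. All 4 SB arrays lay below all 4 DMSO arrays. In Activin cultures the intensities were 6947, 7906, 9507 and 8597, and in KSR cultures 7980, 5927, 8318 and 7900, so that Activin and KSR arrays overlapped those of DMSO and the SB arrays overlapped no other group. With SB against DMSO it fell by 0.49 (SE 0.10, adjusted p = 0.0163), a 1.40-fold difference, and the log2 difference lay between -0.54 and -0.43 in the 4 passages. It was the single member of 52 that passed in this comparison, against 0.376% of all genes. The call is close to its threshold. It was kept in 8 of 19 alternatives, with log2 differences of -0.56 to -0.43, and it was lost, for one, with the authors' normalized values and without all arrays of passage 20, 21 or 23 in turn. With passage as a block the adjusted p was 0.0018.

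Between the ends of the signaling range the Col18a1 difference was firmer. Activin cultures were higher than SB cultures by 0.61 (SE 0.10, adjusted p = 0.000562), or 1.52-fold, in 4 of 4 passages and in all 19 alternatives. Activin against DMSO gave 0.12 (SE 0.10) and did not pass, with per-passage differences of -0.01 and -0.08 at passages 20 and 21 and 0.27 and 0.28 at passages 23 and 24. No difference between the later and the earlier passages in a treatment response passed for any of the 52 members. The second Col18a1 probe was never above background.

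Col18a1 has 2 annotated starts on mouse chromosome 10, 52825 bases apart, and both promoter windows are shown because it is the member that changed when receptor signaling was blocked. The letters of the Smad element CAGAC, or its reverse GTCTG, are in capitals where they occur. The upstream window has no match to it and 3 GC boxes, and the downstream window has 1 match and no GC box. Which start these cells used is not known from the arrays.
Col18a1, upstream start, chr10:77166481-77166780, minus strand: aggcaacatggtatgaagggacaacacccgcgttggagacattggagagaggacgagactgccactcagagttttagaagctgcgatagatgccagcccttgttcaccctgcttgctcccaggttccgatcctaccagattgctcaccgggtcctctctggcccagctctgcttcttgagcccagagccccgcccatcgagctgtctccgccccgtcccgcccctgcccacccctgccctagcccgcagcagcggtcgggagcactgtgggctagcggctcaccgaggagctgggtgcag
Col18a1, downstream start, chr10:77113656-77113955, minus strand: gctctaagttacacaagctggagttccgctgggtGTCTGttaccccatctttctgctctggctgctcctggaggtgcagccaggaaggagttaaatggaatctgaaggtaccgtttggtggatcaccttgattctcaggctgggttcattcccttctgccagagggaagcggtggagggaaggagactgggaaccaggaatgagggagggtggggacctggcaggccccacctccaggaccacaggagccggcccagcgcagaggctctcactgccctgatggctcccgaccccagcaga

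Apart from Col18a1 and the dim Col8a2, no member passed in a treatment comparison. In SB minus DMSO the largest differences after Col18a1 among members above background were those of Nid1 (0.26, SE 0.11, adjusted p = 0.739) and Hspg2 (0.25, SE 0.12, adjusted p = 0.878). The Nid1 arrays read 296, 358, 411 and 287 in SB cultures, against 268, 258, 310 and 239 in DMSO cultures, in passage order. The SB array was the higher of the pair in each of the 4 passages, and the groups overlapped. The Hspg2 arrays read 2124, 2032, 3144 and 2142 in SB cultures, against 2034, 1913, 2328 and 1773 in DMSO cultures, again higher in each passage. Fibronectin, a gene that the study had selected by its fold changes on these same arrays, gave 0.21 (SE 0.12, adjusted p = 0.93), with intensities of 952, 864, 925 and 1053 in SB cultures and 927, 804, 877 and 714 in DMSO cultures. Its other probes above background gave 0.36 (adjusted p = 0.689) and 0.07 (adjusted p = 0.997).

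**Figure D4:**
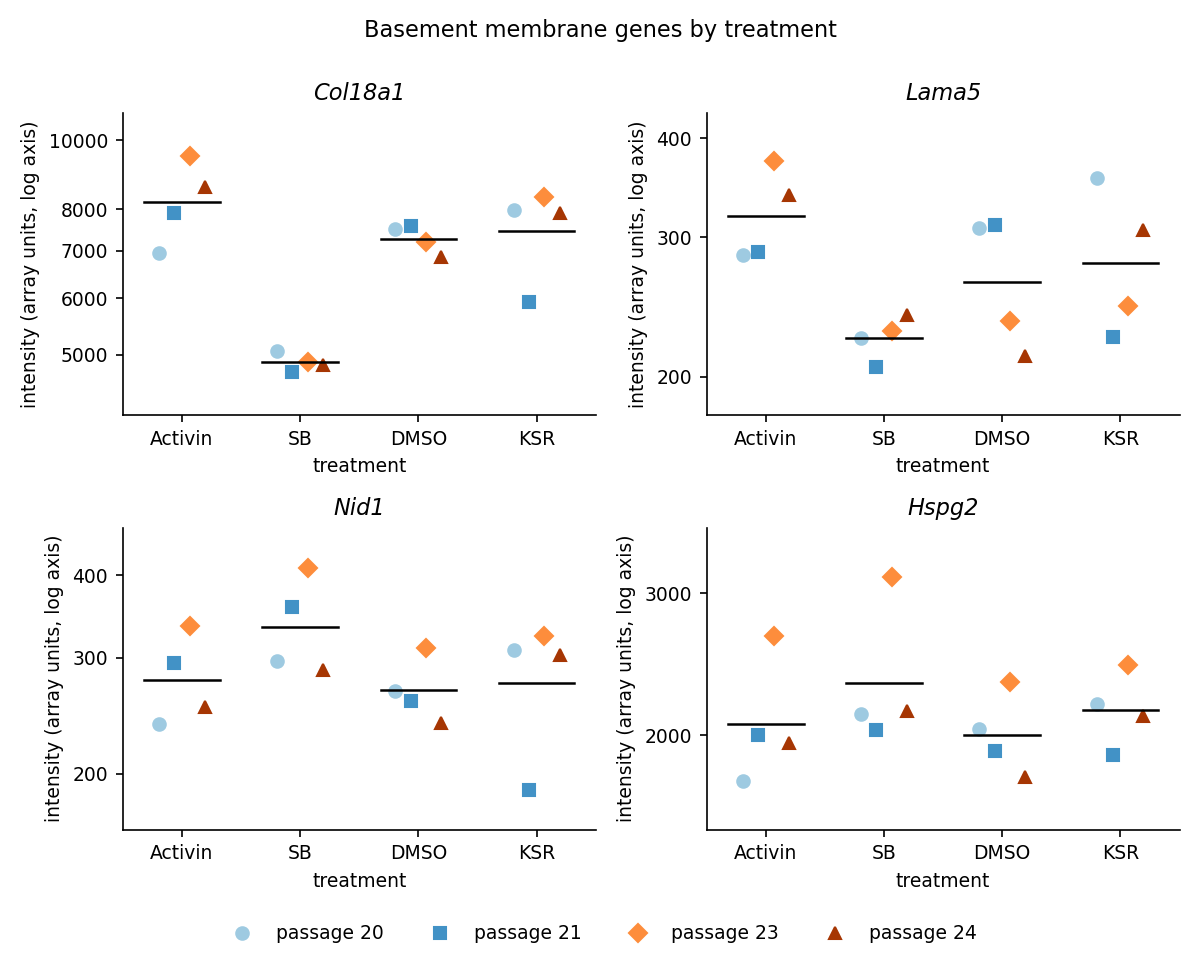
Deposited intensity (array units, log axis) of Col18a1, Lama5, Nid1 and Hspg2 on each array against treatment; symbols mark the passage and horizontal lines are geometric means of the 4 arrays of a treatment. The SB arrays of Col18a1 lie between 4733 and 5064, below all other arrays, while the groups overlap for Nid1 and Hspg2.

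No member passed in Activin minus DMSO, where 0.0251% of all genes did. An unadjusted p under 0.05 was found for 5 members, and for 3.29% of all genes. The largest differences above background were those of Fn1 (0.29, SE 0.12), Sparc (0.17, SE 0.11) and Lama5 (0.16, SE 0.11), each with an adjusted p of 1.0. The other Fn1 probes above background gave 0.042 and 0.044 in Activin minus DMSO. In Activin minus SB, 2 of 52 members passed, Col18a1 and Col8a2, against 1.08% of all genes. Col8a2, a chain of network-forming collagen VIII, read 24, 61.0, 47.7 and 36.2 in Activin cultures, against -15.2, -21.6, 5.4 and -15.3 in SB cultures. It was above background on 1 Activin array and on no SB array, so its log2 difference of 0.83 (adjusted p = 0.00022) gives no fold. Lama5, an alpha chain of epithelial laminins, read 285, 287, 375 and 340 in Activin cultures, against 224, 206, 229 and 239 in SB cultures. These arrays did not overlap, but the fitted difference of 0.34 (SE 0.11) did not pass (adjusted p = 0.264). Nid1 gave -0.28 (SE 0.11, adjusted p = 0.454).

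Of the 52 members none passed in DMSO minus KSR, as none of all genes did (0%). One member, against 3.01% of all genes, had an unadjusted p under 0.05. The largest differences above background were those of Fn1 (-0.18), Hspg2 (-0.13) and Lama4 (-0.13). Col4a1, Col4a2 and Serpinh1 gave no difference past the threshold in any treatment comparison. Their intervals were wide because the passages differed and this fit left passage out, from -0.59 to 0.86 for Col4a2 in SB minus DMSO (95%). With passage as a block Col4a1, Col4a2 and Serpinh1 did not pass in any treatment comparison either.

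**Figure D5:**
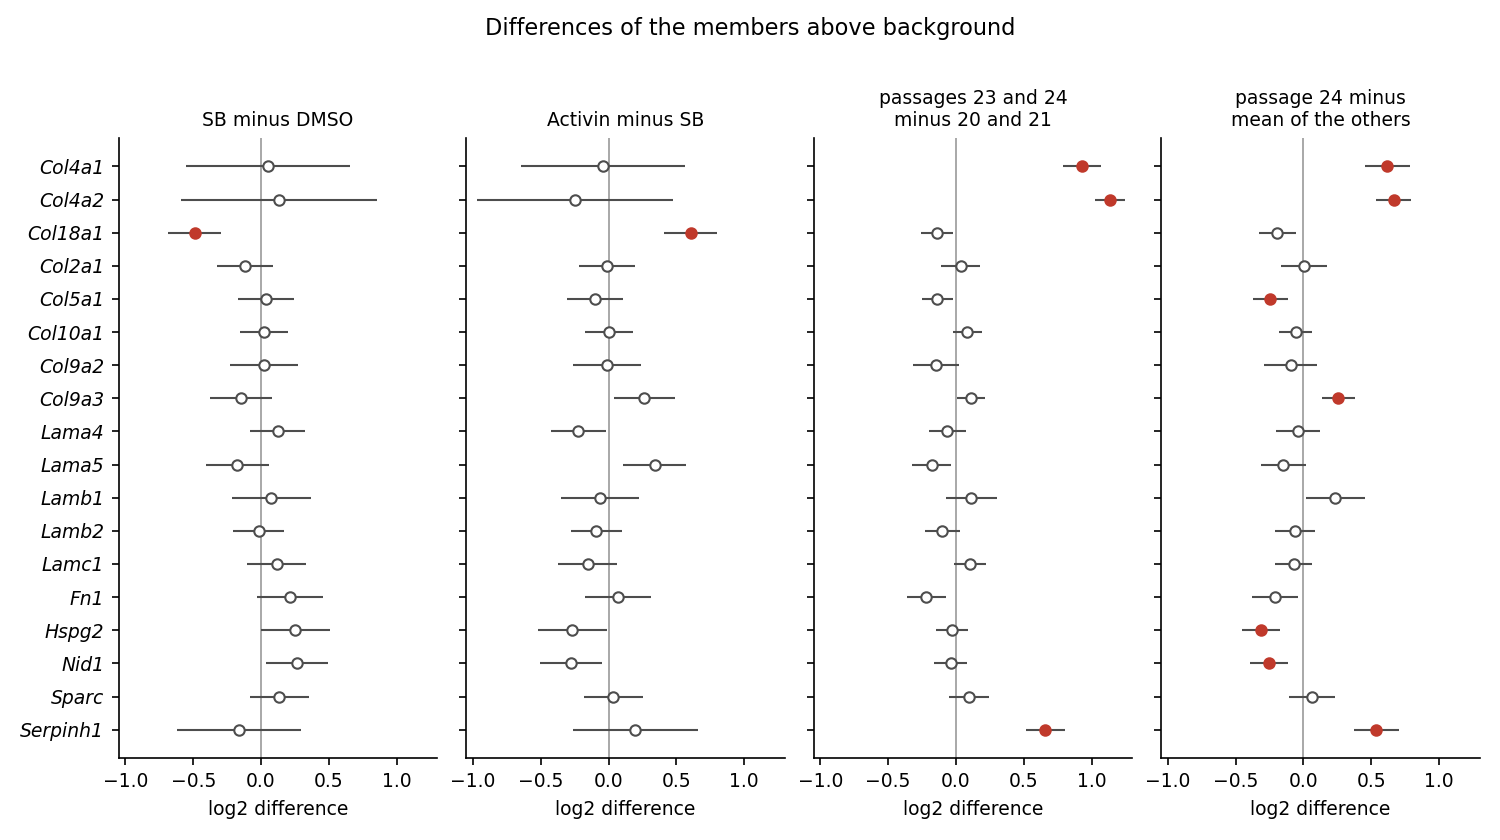
Log2 differences with 95% confidence intervals (horizontal lines) for the 18 detected members in 4 comparisons; filled red points have an adjusted p under 0.05 and open points do not. Col18a1 stands out in both treatment panels, at -0.49 and 0.61, and Col4a1, Col4a2 and Serpinh1 in both passage panels.

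The genes that modify, bind and remove this matrix were read from further lists. Of 24 enzymes and factors that modify or process collagen, 2 were higher and 1 was lower at passages 23 and 24 (12.5%). In that comparison 4.34% of all genes passed, and 7.35% of the genes above background on 4 or more arrays. P4ha1, a catalytic subunit of collagen prolyl hydroxylase, had 59.0, 87.8 and 147 at passages 23 and 24, against 38.5, 46.6 and 73.1 at passages 20 and 21, a log2 difference of 0.28 (SE 0.06, adjusted p = 0.0137), and was higher by 0.40 at passage 24 (adjusted p = 0.00206). Loxl1, a lysyl oxidase that crosslinks matrix, was higher by 0.21 (adjusted p = 0.0475), and Pcolce2, an enhancer of procollagen processing, was lower by 0.21 (adjusted p = 0.0323). None of the 24 passed in a treatment comparison without the passage block. With it Pcolce2 passed in Activin minus SB (0.37, adjusted p = 0.00744).

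Of 14 other basement membrane genes, 1 (7.14%) was lower at passages 23 and 24, the fibulin gene Fbln1, by 0.25. Between these passages 4.34% of all genes passed, and 7.35% of those above background on 4 or more arrays. At passage 24, 2 of the 14 (14.3%) were lower, against 5.62% of all genes and 10.4% of those above background on 4 or more arrays. They were the heparan sulfate proteoglycan agrin (Agrn, by 0.37, adjusted p = 0.00129) and the Sparc relative Smoc1 (by 0.28, adjusted p = 0.0188). Frem2, a basement membrane protein of the Fraser complex, was higher with SB than with DMSO by 0.41 (adjusted p = 0.0227) and passed in Activin minus SB at -0.51, though it was above background on 2 arrays alone. Of 13 matrix receptors, 2 (15.4%) were lower at passages 23 and 24. These were Ddr1, a collagen receptor kinase, by 0.24, and Bcam, a laminin receptor, by 0.38. Dag1, which encodes dystroglycan, and Bcam were lower at passage 24 (15.4% of the list), by 0.33 and 0.31. Of 8 matrix proteases 1 (12.5%) passed in Activin minus SB, against 1.08% of all genes. Mmp14, a membrane-bound metalloproteinase, was higher with Activin than with SB by 0.57 (SE 0.12, adjusted p = 0.0189), with intensities of 827, 974, 1046 and 993 in Activin cultures and 620, 521, 723 and 499 in SB cultures. It was also lower at passage 24, by 0.32 (adjusted p = 0.0149). With the passage block Mmp14 passed in SB minus DMSO too (-0.45, adjusted p = 0.0185), and the integrin gene Itga3 passed in Activin minus SB (-0.48, adjusted p = 0.0166).

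Some genes of the marker lists also moved with the treatment that changed Col18a1. Of the pluripotent cell markers, Tdgf1, the Nodal coreceptor Cripto, fell by 0.99 with SB against DMSO (adjusted p = 0.00123), and of the trophectoderm markers Tfap2c rose by 0.61 (adjusted p = 0.0067) and Gata3 by 0.55 (adjusted p = 0.00431). The other 6 trophectoderm and the other 6 pluripotent cell markers did not pass, and only 4 of the 8 trophectoderm differences were positive. Over all genes 0.376% passed in SB minus DMSO. The summed trophectoderm intensity was 3784 to 4297 in SB cultures, against 2859 to 3151 in DMSO cultures. Most of this sum was Tfap2c, with 2995 to 3555 in SB cultures and 2071 to 2471 in DMSO cultures. No endoderm or fibroblast marker passed in SB minus DMSO, with or without the passage block, and in Activin minus SB the endoderm marker Pdgfra passed with the block alone (-0.33, adjusted p = 0.0481). The part of such cells in the Col18a1 difference was not tested.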

How the data were processed

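Total RNA was labelled and hybridized to 16 Illumina MouseRef-8 arrays. The authors subtracted background from each intensity in BeadStudio (version not given in the sources used here) and deposited these intensities unscaled, so that 26.8% to 28.7% of the probes of an array lie below 0. They also deposited normalized intensities, made by a cross-correlation method with values under 40 set to 40, which served as an alternative here.

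The unscaled intensities were corrected with normexp (saddle, offset 50) in limma 3.58.1 under R 4.3.3, quantile normalized and put on the log2 scale. The offset compresses the differences of dim probes. A linear model of the 4 groups was fitted to all 16 arrays (lmFit and eBayes, two-sided), and passage contrasts had treatment as a covariate. P-values were adjusted by Benjamini-Hochberg over 24606 probes, with a threshold of 0.05. The number of arrays limits the precision. Symbols came from the platform annotation, updated by gene identifier: 20980 probes had 1 symbol, 1 had several and 3625 had none. The scripts were tested on simulated data.

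The members and all gene lists were chosen with earlier results of these data known. Genes given by array were the core collagen IV, laminin, linker and chaperone genes where above background on 4 or more arrays and each member past the threshold; the 3 members above background with the largest differences were named in each comparison, and at most 5 genes past the threshold from each further list (modifying enzymes, other basement membrane genes, receptors, proteases and cell type markers). For members called while undetected in a group, a bound on the fold was computed against the lowest detected value, and none of these bounds exceeded 1. Correlations had been planned over all arrays, with treatment means removed and permutation within treatments. They were made within earlier and within later passages instead, with treatment means left in and arrays permuted freely (exact permutation tests in Python 3.11.15). The reason was that the Col4a1 levels of the later and the earlier passages lay apart. This choice was made after seeing the data, as was the fit of treatment responses within earlier and later passages. Alternatives changed the background step, the scaling, the probes tested and the arrays used.

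Passage numbers pair the arrays of the 4 groups, as the labels give each number as a passage of the line. After group means were removed, arrays of the same passage correlated with r of 0.098 to 0.325 (24 pairs), and arrays of different passage and group with -0.238 to 0.100 (72 pairs).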

Additional observations from a re-analysis of the deposited data

Results flagged for a closer look

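Among 18 members tested in 8 groups of 4 arrays each, 9 of 144 groups held an array whose gap to the nearest of the others exceeded the 95% critical value of Dixon's ratio of gap to range, which chance gives in about 1 of 20 groups. Log2 values are given. The SB array was far from its passage for Col18a1 at passage 21 (12.47, others 12.93 to 13.00), Hspg2 at passage 23 (11.62, others 11.20 to 11.26) and Nid1 at passage 23 (8.91, others 8.61 to 8.62). The Activin array was far from its passage for Lama5 at passage 23 (8.75, others 8.23 to 8.31), and the DMSO array for Col5a1 at passage 21 (8.05, others 8.07). Among the arrays of a treatment, passage 23 was low for Lamb1 with Activin (6.79, others 7.35 to 7.39) and with DMSO (7.16, others 7.22 to 7.23) and high for Sparc with KSR (7.27, others 6.99 to 7.02), and passage 21 was low for Col2a1 with DMSO (6.88, others 7.27 to 7.30).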

How the results depend on the processing

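No value of the named members turned direction while past the threshold. Of 414 values of single genes under the alternatives, 350 kept their side of the threshold and 64 lost it. The 350 include values of genes that had not passed as reported, such as Fn1 in Activin minus DMSO, and had no call to lose. Among genes that had passed, Col18a1 in SB minus DMSO lost its call in 11 of 19 alternatives. Nid1 and Col5a1 at passage 24 lost theirs in 8 of 12 each, while Col4a1, Col4a2 and Serpinh1 lost none. The count of members past the threshold in SB minus DMSO, 1 as reported, was 0 with intensities under 16 set to 16 in place of normexp, with a normexp offset of 16, with the authors' values and with the arrays of the 2 groups alone. Of all genes 0.169%, 0.238%, 0.182% and 0.251% passed in these settings, against 0.376% as reported. The count of members was also 0 by the study's fold cutoff of over 1.5, which 0.213% of all genes passed. This cutoff was applied to the differences fitted here and not to the authors' values. In Activin minus SB the 2 members became 1, Col18a1, with the floor of 16, with the authors' values and with probes above background alone. Over all genes tested the shares were 0.633%, 0.62% and 2.46%, against 1.08% as reported. At passage 24 the 10 members became 6 with the authors' values, 3 without the SB arrays, 3 without the DMSO arrays and 6 without the KSR arrays. Between later and earlier passages the 4 members (7.69%) became 7 (13.5%) with median scaling, while the share of all genes went from 4.34% to 17.9%.

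Leaving out arrays or passages, the counts ran from 0 to 1 in SB minus DMSO and 2 to 2 in Activin minus SB. They stayed at 0 in Activin minus DMSO and in DMSO minus KSR. They ran from 6 to 9 at passage 24 and from 3 to 6 between later and earlier passages. The share of all genes ran from 0.175% to 0.357% in SB minus DMSO and from 0.576% to 1.11% in Activin minus SB. It ran from 3.28% to 6.86% at passage 24 and from 1.38% to 4.2% between later and earlier passages. For the passage comparisons, leaving out passages was chosen after seeing the data. In SB minus DMSO, Col18a1 was lost without all arrays of passage 20, 21 or 23, without the SB array of passage 23 or 24 and without the DMSO array of passage 20 or 21. Without the SB array of passage 23 the 1 member that passed was Col8a2.

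With passage as a replicate block, the counts of members were 1 in SB minus DMSO, 0 in Activin minus DMSO, 2 in Activin minus SB and 0 in DMSO minus KSR, so the pairing changed no call of a member. The members' shares were 1.92% in SB minus DMSO and 3.85% in Activin minus SB. Over all genes the share rose with the block, from 0.376% to 0.726% in SB minus DMSO and from 1.08% to 2.17% in Activin minus SB. It was 0.0376% against 0.0251% in Activin minus DMSO and stayed at 0% in DMSO minus KSR. In the further lists the block added a call for Pcolce2, Itga3 and Pdgfra in Activin minus SB and for Mmp14 in SB minus DMSO. The causes of these changes were not tested.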
